A study of Mus musculus with 8 samples.

Results

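The Notch pathway passes signals between touching cells. Ligands of the Delta and Jagged families on one cell bind Notch receptors on its neighbour, proteases then cut the receptor, and its freed intracellular part enters the nucleus, joins the DNA-binding protein Rbpj and turns on target genes such as those of the Hes and Hey families. In the thymus, Notch ligands of the epithelium act on Notch1 of the entering progenitors and commit them to the T cell lineage, and Notch receptors are also known on thymic epithelial cells. The 10 genes described here were 4 ligands (*Dll1*, *Dll4*, *Jag1* and *Jag2*), 3 receptors (*Notch1*, *Notch2* and *Notch3*) and 3 target genes (*Hes1*, *Hey1* and *Nrarp*), picked by their symbols among the 24052 gene symbols counted. The rule used names alone, but the list was drawn up with earlier results of these data known.

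RNA-Seq was done on the medullary thymic epithelial cell (mTEC) line mTEC 3.10 and on its *Aire* mutant clone E6, both sampled without thymocytes and after thymocyte adhesion, which gave 8 libraries in 4 conditions of 2. WT cells carried wildtype *Aire*. E6 came from 1 single cell edited with Crispr-Cas9, so clone and mutation cannot be told apart, and its labels give *Aire* +/- while the study's methods describe indels in both alleles. For adhesion, thymocytes of C57BL/6 mice were kept with the mTECs at 50 per mTEC for 12 h, the adhered thymocytes were washed off and the mTECs were collected. The mTECs had been grown for 24 h in replicate 2 of WT after adhesion and in replicate 1 of E6 both before and after adhesion, and for 12 h in the other libraries. Nothing in the sources states that the libraries of a condition came from separate cultures, so p-values measure the spread between these libraries, which may be technical.

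The libraries held 13506610 to 20145154 counts on genes, and 3 counts corresponded to 0.149 to 0.222 CPM, the unit of levels below, which scales counts to the size of the library. Replicate 1 of WT after adhesion stood apart. In it 66.7% of all counted reads fell on genes, against 75.7% to 78.8% in the others, and its log2 CPM fell by 0.457 per 10 percentage points of GC content against the mean library, while the other slopes lay between -0.02 and 0.13. Of the epithelial markers, *Epcam* (537 to 643 CPM) and *Krt8* (1378 to 2041 CPM) were abundant and *Krt5* stayed at or below 1.02 CPM. The summed level of 6 listed markers of cortical thymic epithelial cells was 34.7 to 52.8 CPM over the libraries. Its largest parts were *Ly75* (17.7 to 31.7 CPM) and *Foxn1* (11.1 to 14.8 CPM), and 2 of the 6, *Psmb11* and *Enpep*, had 0 counts. The summed level of 7 markers of mature mTECs was at most 0.107 CPM before adhesion, 0.709 and 0.484 CPM in WT after it and 2.75 and 3.64 CPM in E6 after it, the largest parts being the MHC II genes *H2-Ab1* (at most 24 counts) and *H2-Aa* (at most 19). These markers thus moved with the thymocyte markers. Among them were 0 counts of *Aire* in 6 libraries and 3 counts in the other two, and *Aire* could not be used to check the labels. The summed level of 15 thymocyte markers was 0.568 ± 0.0305 CPM in WT before adhesion and 0.55 ± 0.399 in E6 before adhesion (SD, n = 2 each). It was 14.7 ± 2.86 CPM in WT after adhesion and 101 ± 15.5 in E6 after adhesion, and was thus 6.87 times as high in E6 as in WT after adhesion. The study's adhesion assay counted adhered thymocytes per mTEC and found fewer on E6 than on WT. The markers here are RNA left after the adhered thymocytes were washed off and do not measure adhesion. Why they were higher in E6 was not tested. In WT 13 of the 15 markers, and in E6 all 15, were higher in both libraries after adhesion than in both before it. The other 10 thymocyte markers listed were not analysed here. Of 6 markers of B cells and myeloid cells, *Lyz2* was at 0 CPM before adhesion. After adhesion it was at 1.01 ± 0.219 CPM in WT and 5.89 ± 0.896 CPM in E6. The sum of this list, mostly *Csf1r*, was 41.8 to 66 CPM before adhesion and 40.5 to 58 CPM after it. The part of myeloid RNA in the levels below was not tested.

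Compared per kb of exon over the 8 libraries, *Hes1* had the highest mean level of the 10 genes, at 37.6 CPM per kb. *Notch2* followed at 20.1 and *Jag1* at 11.3 CPM per kb. *Hes1* was above *Notch2* in 4 of 8 libraries, those after adhesion, and these neighbours were not separated. *Notch1* (5.77 CPM per kb), *Nrarp* (3.77), *Dll1* (2.53) and *Notch3* (2.01) came next. From *Notch2* down to *Jag2* (0.174 CPM per kb), each gene was above the next one in 8 of 8 libraries. *Dll4* (0.0264 CPM per kb) and *Hey1* (0.00994) rested on a few reads and were above and below each other in different libraries.

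**Figure D1:**
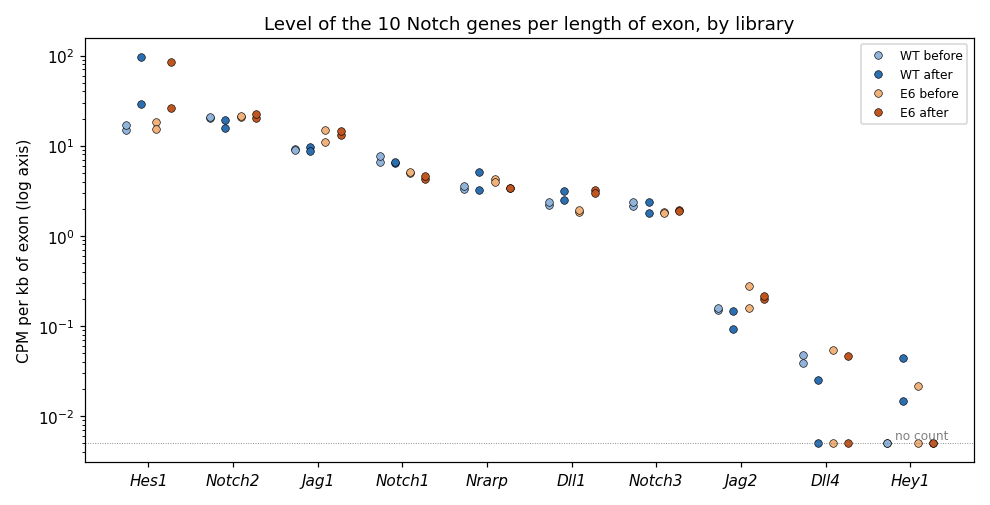
Levels of the 10 Notch genes in CPM per kb of exon on a log axis, with 1 point per library, coloured by condition; points on the dotted line had no count. *Hes1*, *Notch2* and *Jag1* lead, *Hes1* spreads the most, and *Dll4* and *Hey1* lie near the limit of detection.

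Promoter windows of RefSeq (GRCm38.p6), the 250 bases before a start given by RefSeq, were found for 8 of the 10 genes, all but *Hes1* and *Hey1*. There were 9 windows, 2 of them of *Dll1*. RefSeq starts can differ from the GENCODE genes whose positions are given below, and the windows of *Notch1*, *Jag2* and 1 of *Dll1* lay wholly inside those genes, with 124 bases of the *Jag1* window and 11 of the *Notch2* window. The letters TGGGAA, the core that Rbpj binds, were sought on both strands, and so were the letters CACGNG, a site that Hes proteins bind and that includes the palindrome CACGTG of other factors. TGGGAA stood in none of the 8 genes' windows, against 21.6% of all 32851 windows, and CACGNG stood in windows of 6 genes, against 23.5% of all windows. The 23.5% is a share of windows and the 6 a count of genes, of which *Dll1* had 2 windows. A match is a description of letters, and no binding was measured here. The *Dll1* window outside the annotated gene, *Dll1* being the ligand with the higher levels after adhesion described below, and the window of *Nrarp*, the target without them, are shown 5′ to 3′ with the CACGNG match in capitals. The first lies at chr17:15376933-15377182 on the minus strand and the second at chr2:25180508-25180757 on the plus strand.
*Dll1*: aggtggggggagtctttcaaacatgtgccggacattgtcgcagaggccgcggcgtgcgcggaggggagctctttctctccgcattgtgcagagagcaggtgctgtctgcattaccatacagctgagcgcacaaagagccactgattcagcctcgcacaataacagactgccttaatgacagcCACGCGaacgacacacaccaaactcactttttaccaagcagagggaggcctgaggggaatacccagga
*Nrarp*: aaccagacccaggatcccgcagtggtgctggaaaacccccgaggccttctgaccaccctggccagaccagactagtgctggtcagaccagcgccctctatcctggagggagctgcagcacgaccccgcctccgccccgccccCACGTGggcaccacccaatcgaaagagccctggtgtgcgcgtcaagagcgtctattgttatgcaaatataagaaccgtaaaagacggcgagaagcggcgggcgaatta
The match in the *Dll1* window began 68 bases before the RefSeq start at its end, and that in the *Nrarp* window 108 bases before its start. The other window of *Dll1* (chr17:15375824-15376073) also held 1 match, 105 bases before its RefSeq start.

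*Jag1*, a Jagged ligand that binds several Notch receptors, was the most abundant of the ligands and was higher in E6. The gene lies on chr2:137081456-137116644 (GRCm38, minus strand). Its level in WT was 53.1 and 52.3 CPM before adhesion and 56.8 and 50.2 CPM after it (replicates 1 and 2). In E6 it was 87.8 and 64.7 CPM before adhesion and 75.5 and 84.5 CPM after it. The 4 E6 libraries lay above the 4 WT libraries, and the levels before and after adhesion overlapped. Averaged over both conditions the log2 FC of E6 against WT was 0.56 ± 0.12 (SE; FDR 0.0161 by the quasi-likelihood test of edgeR), a 1.47-fold difference. Mean levels were 53.1 ± 2.74 CPM in WT and 78.1 ± 10.3 CPM in E6 (SD, n = 4 each). The log2 FC was 0.53 (FDR 0.11) before adhesion and 0.58 (FDR 0.0644) after it, with no overlap in either, so within each condition the difference missed the threshold. The averaged difference missed it too, at an FDR between 0.0567 and 0.0806 and a log2 FC between 0.44 and 0.60, when either library of WT before adhesion, replicate 1 of E6 before adhesion or either library of E6 after adhesion was left out. For adhesion, the log2 FC of *Jag1* was 0.02 in WT (FDR 0.965) and 0.07 in E6 (FDR 1).

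*Jag2*, the second Jagged ligand, was a low transcript on chr12:112907819-112929776 (minus strand), with 9 to 36 counts per library. WT libraries had 1.03 and 1.11 CPM before adhesion and 0.639 and 1.02 CPM after it. E6 libraries had 1.11 and 1.93 CPM before adhesion and 1.38 and 1.49 CPM after it. The E6 libraries lay just above the WT libraries, 1.10988 CPM being the lowest level in E6 and 1.10553 CPM the highest in WT. The log2 FC of 0.64 ± 0.28 did not pass the test (FDR 0.149), except with replicate 2 of WT after adhesion left out (0.86, FDR 0.0312). Without replicate 2 of E6 before adhesion it was 0.41 (FDR 0.46). At this depth its fold change was poorly determined.

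*Dll1*, a Delta ligand that can drive T cell commitment in culture, had higher values in all libraries after adhesion than in all before it, but the difference did not pass the test. It lies on chr17:15367354-15376872 (minus strand). WT cells held 9.23 and 10.1 CPM before adhesion and 10.6 and 13.2 CPM after it. E6 cells held 7.84 and 8.09 CPM before adhesion and 13.5 and 12.7 CPM after it. The cell types overlapped. After against before adhesion, the log2 FC was 0.30 ± 0.17 in WT (FDR 0.62), 0.72 ± 0.17 in E6 (FDR 0.118) and 0.51 ± 0.12 averaged (FDR 0.108), none of which passed the test. With replicate 1 of WT after adhesion left out, the averaged value was 0.60 and that in E6 was 0.74, and with replicate 2 left out instead they were 0.42 and 0.73. These 4 values passed the FDR threshold, but the lone library of that condition is then assumed to vary like the others. Without any one of the other 6 libraries the FDR was between 0.371 and 0.482 averaged and between 0.272 and 0.706 in E6. In WT alone no such fit passed, and the log2 FC was 0.12 without replicate 2 after adhesion and 0.45 without replicate 1. With the counts corrected for GC content it passed too, at 0.59 averaged (FDR 0.0211) and 0.74 in E6 (FDR 0.0313), and with DESeq2 the averaged value was 0.52 (FDR 0.0448). The thymocyte markers were also higher after adhesion, the more so in E6, and their part in these values was not tested. The difference between the adhesion effects, 0.41 ± 0.24 higher in E6, did not pass the test (FDR 0.988), except with replicate 2 of WT after adhesion left out (0.61, FDR 0.0241).

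*Dll4*, the Delta ligand that thymic epithelium presents to progenitors in the thymus and the one on which T cell commitment there depends, was at the limit of detection in this line. It lies on chr2:119325784-119335962 (plus strand). In WT there were 3 and 2 counts before adhesion and 0 and 2 after it, and in E6 there were 3 and 0 counts before adhesion and 3 and 0 after it. All libraries were at or below 3 counts, or 0.208 CPM, and it was not tested.

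*Notch1*, the receptor that thymocyte progenitors need for T cell commitment, was lower in E6. It lies on chr2:26457903-26516663 (minus strand). Its level in WT was 94.7 and 109 CPM before adhesion and 90.8 and 93.6 CPM after it. In E6 it was 70.1 and 72.4 CPM before adhesion and 60.6 and 65.5 CPM after it. The 4 E6 libraries lay below the 4 WT libraries without overlap. The log2 FC of E6 against WT was -0.53 ± 0.08 averaged over both conditions (FDR 0.00538), a 1.45-fold difference. It was -0.51 ± 0.11 before adhesion (FDR 0.0462) and -0.55 ± 0.11 after it (FDR 0.029). Mean levels were 97 ± 8.04 CPM in WT and 67.1 ± 5.21 CPM in E6 (SD, n = 4 each). When single libraries were left out, the averaged log2 FC lay between -0.58 and -0.48, and its FDR was 0.0454 or lower. Within the conditions the call was less firm. It was lost under 11 of 16 alternatives before adhesion (FDR up to 0.366) and under 7 of 16 after it (FDR up to 0.24), among them the loss of any library of WT before adhesion or of E6, while the log2 FC stayed between -0.76 and -0.41. Levels after adhesion were below those before it within each cell type, with a log2 FC of -0.14 in WT (FDR 0.645) and -0.18 in E6 (FDR 1) that did not pass the test. Thymocytes express *Notch1* as well, and it was lower in E6 after adhesion, where the thymocyte markers were highest. Their part in its level was not tested.

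*Notch2*, the most abundant receptor, differed little between the conditions. It lies on chr3:98013527-98150361 (plus strand). In WT it was at 219 and 223 CPM before adhesion and 168 and 209 CPM after it. In E6 it stood at 226 and 229 CPM before adhesion and 218 and 245 CPM after it. The lowest value belonged to replicate 1 of WT after adhesion, and the other libraries lay between 209 and 245 CPM. The log2 FC of E6 against WT was 0.17 ± 0.10 (FDR 0.256). It passed the FDR threshold at 0.11 without replicate 1 of WT after adhesion and at 0.26 without replicate 2. The lone library of that condition is then assumed to vary like the others.

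*Notch3*, a receptor known in developing thymocytes and in mural cells of vessels, was the least abundant of the receptors. It lies on chr17:32120820-32166852 (minus strand). WT libraries had 17.5 and 18.9 CPM before adhesion and 14.6 and 19.2 CPM after it. E6 libraries had 15 and 14.3 CPM before adhesion and 15.5 and 15.1 CPM after it. WT lay above E6 in all but replicate 1 of WT after adhesion. The averaged log2 FC was -0.23 ± 0.12 (FDR 0.206). With that library left out, it was -0.31 and passed the FDR threshold. With replicate 2 of WT after adhesion left out instead it was -0.11 and did not pass. Each of these fits had a lone library in that condition. With all libraries kept and the counts corrected for GC content, the averaged log2 FC was -0.35 (FDR 0.0237 by edgeR). With the replicate block added to that correction it was -0.35 (FDR 0.0357). Of the 7 alternatives that kept all libraries, these 2 alone passed the FDR threshold, both below the FC limit. The summed markers of endothelial cells were at most 0.0694 CPM before adhesion. They were at 0.142 and 0.29 CPM in WT and 2.10 and 1.55 CPM in E6 after it. Those of fibroblasts reached at most 2.61 CPM in any library. No list was made for mural cells.

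**Figure D2:**
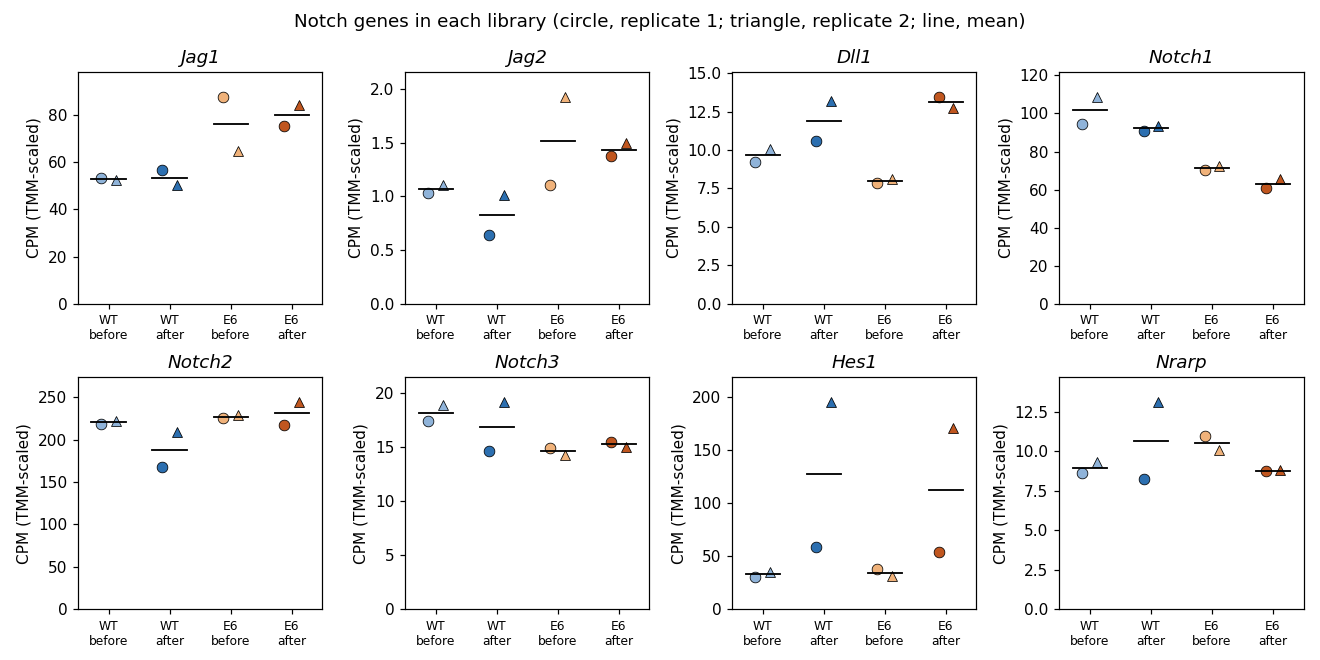
TMM-scaled CPM of the 8 tested Notch genes in each library, with a circle for replicate 1, a triangle for replicate 2 and a line for the mean of each condition. *Jag1* sits between 50.2 and 56.8 CPM in WT and between 64.7 and 87.8 in E6, *Notch1* has the opposite order, and *Hes1* has 2 libraries far above the rest, both replicate 2 after adhesion.

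*Hes1*, which encodes a repressor that many tissues use as the first target of Notch, had the widest spread. It lies on chr16:30064384-30067796 (plus strand). Its level in WT was 30.5 and 34.9 CPM before adhesion and 58.7 and 195 CPM after it. In E6 it was 37.5 and 31.5 CPM before adhesion and 53.5 and 171 CPM after it. Every library after adhesion was higher than every library before it, the 2 cell types overlapped, and replicate 2 after adhesion was 3.33 times as high as replicate 1 in WT and 3.20 times as high in E6. After against before adhesion, the log2 FC was 1.96 ± 0.65 in WT (FDR 0.62), 1.71 ± 0.65 in E6 (FDR 0.574) and 1.83 ± 0.46 averaged (FDR 0.139). None of the 3 passed the test, and the replicates after adhesion were very unequal. With DESeq2 the averaged value passed, at 1.84 (FDR 0.0256). It also passed with replicate 1 of WT after adhesion left out, at 2.16 (FDR 2.23e-07), or replicate 2, at 1.28 (FDR 7.46e-05), and the lone library of that condition is then assumed to vary like the others. The same applied to E6 alone (1.74, FDR 0.000157, and 1.72, FDR 0.000173), and WT passed without replicate 1 (2.58, FDR 3.34e-05). The other fits with a library left out did not pass. Without replicate 2 of WT after adhesion the value in WT was 0.83 (FDR 0.0548), and without replicate 2 of E6 after adhesion that in E6 was 0.63 (FDR 1). Without either library of E6 after adhesion or any library before it the FDR lay between 0.125 and 0.511 averaged and was at least 0.345 in E6. The difference between the adhesion effects was -0.25 ± 0.89 (E6 minus WT, FDR 0.99), with an error wider than the value, so the test does not show that the effects were alike.

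The high *Hes1* libraries had been grown for 24 h in WT and for 12 h in E6, and the low ones for 12 h in WT and 24 h in E6, so the higher library had the longer growth in WT and the shorter one in E6. Over the 8 libraries the thymocyte markers, like *Hes1*, were higher after adhesion. Among the 4 libraries after adhesion their order differed from that of *Hes1*. The markers were 6.87 times as high in E6 as in WT after adhesion, where mean *Hes1* was 0.884 times as high, and within each cell type they were lower in the replicate with more *Hes1* (12.6 against 16.7 CPM in WT and 89.8 against 112 CPM in E6). *Dtx1* and *Hes5*, targets of Notch in thymocytes and in neural progenitors, had 0 counts in all libraries, and *Ptcra*, a target in thymocytes, had at most 3. *Gata3*, another target listed, had 4.45 to 9.20 CPM. Its averaged log2 FC for adhesion was 0.52 ± 0.15 and did not pass the test (FDR 0.228). Those of *Hey2*, *Ccnd1* and *Myc* were -0.02, 0.06 and 0.07. The part of growth time and of thymocyte RNA in the level of *Hes1* was not tested. In bulk RNA, fewer cells that express a gene and less of its RNA per cell cannot be told apart.

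*Nrarp*, a target that limits Notch signalling by acting on the nuclear complex, lies on chr2:25180758-25183339 (plus strand). In WT it was at 8.62 and 9.29 CPM before adhesion and 8.23 and 13.1 CPM after it. In E6 it stood at 11 and 10.1 CPM before adhesion and 8.74 and 8.78 CPM after it. The libraries before and after adhesion overlapped in WT, and in E6 those after adhesion lay lower. The log2 FC for adhesion was 0.26 ± 0.23 in WT (FDR 0.655) and -0.26 ± 0.23 in E6 (FDR 1). The difference of -0.53 ± 0.32 between them (E6 minus WT) did not pass the test (FDR 0.988). It passed in 1 of 15 alternatives, that without replicate 1 of WT after adhesion (-0.78, FDR 0.0441), which leaves the high library as the lone one of its condition. Without the high library, replicate 2, the difference was -0.12 (FDR 0.711).

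*Hey1*, a second target and a repressor related to *Hes1*, lies on chr3:8663359-8667256 (minus strand). It had 2 and 1 counts in WT after adhesion and 1 count in replicate 1 of E6 before adhesion. The other libraries had 0, so it was not detectable at this depth and was not tested.

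Differentially expressed (DE) mRNAs were those past an FDR of 0.05 that also reached an FC of 1.5. Of the 10 genes, 8 had enough counts to be tested, and by edgeR 0 of them were DE in E6 against WT averaged over both conditions, against 11.3% of all 11672 tested genes. Without the FC limit 2 of them, *Jag1* and *Notch1*, passed an FDR under 0.05, against 20.9% of all genes, and both passed it with DESeq2. These 2 also had an unadjusted p under 0.05, against 35.3% of all genes. Before adhesion 0 were DE, against 5.01% of all genes, and *Notch1* alone passed the FDR, against 5.72%. After adhesion 0 were DE, against 8.91%, and *Notch1* alone passed the FDR, against 10.3%. In each of these 2 contrasts *Jag1* and *Notch1* had an unadjusted p under 0.05, against 21.6% of all genes before adhesion and 29.7% after it. DESeq2 called 0 of the 8 before adhesion and 1, *Jag1*, after it, against 841 and 1354 of all tested genes. In 3 of the 8 genes, *Jag1*, *Jag2* and *Notch1*, the 4 WT and the 4 E6 libraries did not overlap, against 31.2% of all tested genes. The median log2 FC of the 8 genes was -0.04, and that of all tested genes was -0.01.

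For adhesion, 0 of the 8 genes were DE by edgeR in WT, against 0% of all genes (873 genes had an unadjusted p under 0.05, and DESeq2 called 65), and 1 (*Hes1*) had an unadjusted p under 0.05. In E6 0 were DE, against 2.00% of all genes, and averaged over both cell types 0 were DE, against 1.89%. *Dll1* and *Hes1* had an unadjusted p under 0.05 in both, against 6.97% of all genes in E6 and 9.89% averaged. DESeq2 called 0 of the 8 in WT, 0 in E6 and 1, *Hes1*, in the averaged contrast, against 65, 296 and 337 of all genes. The difference of the adhesion effects had 0 DE genes among the 8 and an unadjusted p under 0.05 in 0, against 0% DE of all genes, of which 297 had an unadjusted p under 0.05. DESeq2 called 3 genes there, and 0 of the 8. All 4 libraries after adhesion lay above all 4 before in 2 of the 8 genes, *Dll1* and *Hes1*, against 3.82% of all tested genes. The contrasts of WT, of E6 and of the average share libraries and are not independent.

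**Figure D3:**
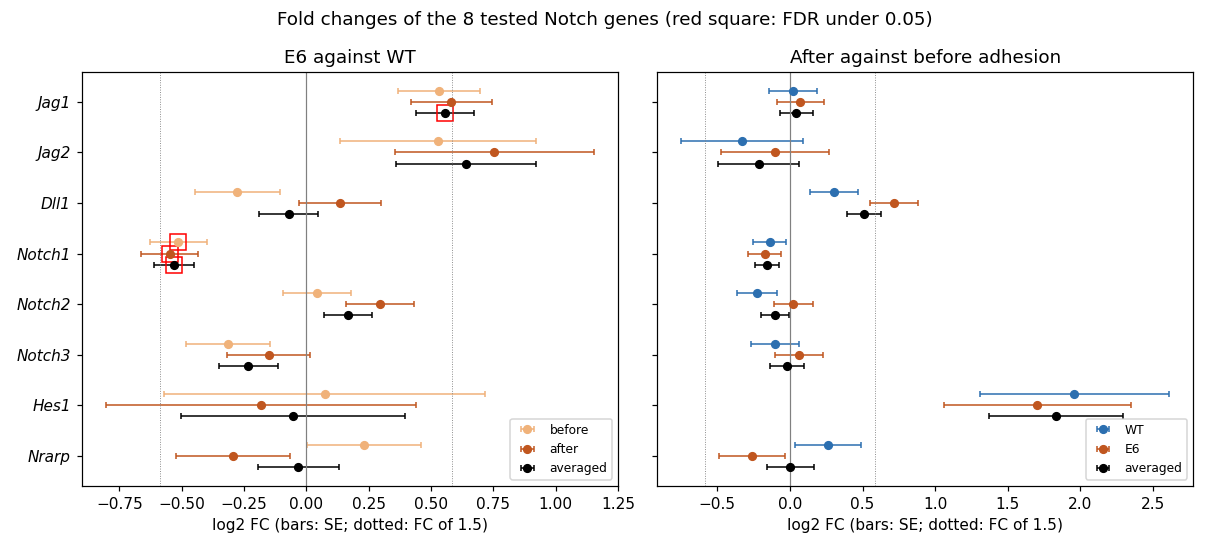
Log2 FC with its SE for the 8 tested Notch genes, E6 against WT on the left and after against before adhesion on the right; red squares mark an FDR under 0.05 and dotted lines an FC of 1.5. *Notch1* is marked in all 3 contrasts of the cell types and *Jag1* in the averaged one, both inside the dotted lines, and *Hes1* reaches the highest values for adhesion with the widest errors.

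*Jag1*, *Notch1* and *Nrarp* share chromosome 2. The median log2 FC of E6 against WT over 785 genes of that chromosome was 0.02, and *Jag1* and *Notch1* lay on opposite sides of it.

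The list of other genes of the pathway held 55 genes, of which 43 could be tested. Of the 43, 5 were DE in E6 against WT averaged over both conditions, 2 higher and 3 lower in E6, against 11.3% of all tested genes. In all, 10 passed the FDR alone, against 20.9% of all genes, so both counts were near the share of genes at large. By DESeq2 5 were DE, against 1410 of all tested genes. When single libraries were left out, the count was lowest without either library of WT before adhesion or replicate 1 of E6 after it. It was highest without replicate 2 of WT after adhesion. In those fits the number of DE genes among all genes moved in the same direction. Each of them had a lone library in the condition concerned. The median log2 FC of the 43 was 0.02.

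The largest of these falls in E6 was *Hey2*, a target gene of the Hey family, at -1.36 ± 0.25 (FDR 0.0109). It had 2.79 and 3.02 CPM in WT before adhesion, 3.48 and 4.50 CPM in WT after it, 2.15 and 1.07 CPM in E6 before adhesion and 1.08 and 1.14 CPM in E6 after it. *Hey2* was thus the detected member of the family that *Hey1* belongs to, and its WT and E6 libraries did not overlap. It was not called when either library of WT before adhesion or either of E6 after it was left out (FDR up to 0.0619). Of the other targets listed, *Ccnd1*, *Myc* and *Gata3* did not pass the test, and *Hes7*, *Heyl* and *Il2ra* were too low to test.

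Among the genes of receptor cleavage, *Aph1b*, a subunit of the γ-secretase complex that frees the intracellular part of Notch, fell in E6 by 1.28 on the log2 scale (SE 0.12, FDR 0.000943). Its mean level was 9.1 ± 1.24 CPM in WT and 3.73 ± 0.24 CPM in E6 (SD, n = 4 each). It was DE with any 1 of the 8 libraries left out, at a log2 FC between -1.31 and -1.24. *Aph1c*, a near-identical copy with at most 8 counts, could share its reads, so the split between the copies is uncertain. The other 8 tested genes of this group were not DE, the paralog *Aph1a* among them. *Furin*, the protease that first cuts the receptor on its way to the surface, passed the FDR below the FC limit (0.52, FDR 0.0345).

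*Lfng*, a glycosyltransferase that changes which ligands a Notch receptor answers to, was higher in E6, at 29.4 ± 4.73 CPM against 18.1 ± 1.15 CPM in WT (SD, n = 4 each; log2 FC 0.70 ± 0.14, FDR 0.014). It was called with 4 of the 8 libraries left out in turn, and not without either library of WT before adhesion, replicate 1 of E6 before it or replicate 1 of E6 after it (FDR up to 0.0769). *Pofut1*, *Poglut1* and *Rfng*, which also add sugars to the receptors, did not pass the test. *Dtx2*, of the Deltex family that acts on receptor turnover, was higher in E6 (28.7 ± 2.79 against 18.5 ± 2.82 CPM, log2 FC 0.63 ± 0.14, FDR 0.0219), but it was called in only 1 of the 8 fits with a library left out, that without replicate 2 of WT after adhesion.

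In the nuclear complex, *Maml3*, a coactivator of the Mastermind family, was lower in E6 (6.95 ± 0.864 against 11.9 ± 2.65 CPM, log2 FC -0.77 ± 0.17, FDR 0.0191), and its relatives *Maml1* and *Maml2* did not pass the test. *Maml3* was called only when a library of WT after adhesion was the one left out. *Rbpj* itself had 94.4 and 87.3 CPM in WT before adhesion, 130 and 84.5 CPM in WT after it, 145 and 125 CPM in E6 before adhesion and 135 and 141 CPM in E6 after it. Its log2 FC was 0.47 ± 0.14 (FDR 0.0535). Replicate 1 of WT after adhesion was the one WT library within the range of E6. Without it the log2 FC was 0.65 and passed the FDR threshold, with a lone library left in that condition.

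The corepressor *Ctbp1* (0.48, FDR 0.0153) was higher in E6 below the FC limit. *Snw1*, a protein of the nuclear complex (-0.51, FDR 0.0336), and *Dtx4* (0.29, FDR 0.0454) also passed the FDR alone. None of the 4 genes of ligand endocytosis, *Mib1*, *Mib2*, *Neurl1a* and *Neurl1b*, was DE. Before adhesion 1 of the 43 genes was DE by edgeR (*Aph1b*), against 5.01% of all genes, and after adhesion 3 were (*Hey2*, *Aph1b* and *Maml3*), against 8.91%, all lower in E6. In the averaged adhesion contrast 0 of the 43 were DE by edgeR, against 1.89% of all genes. Of them 1 had an unadjusted p under 0.05, against 9.89%. DESeq2 called 0 of the 43, against 337 of all genes.

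**Figure D4:**
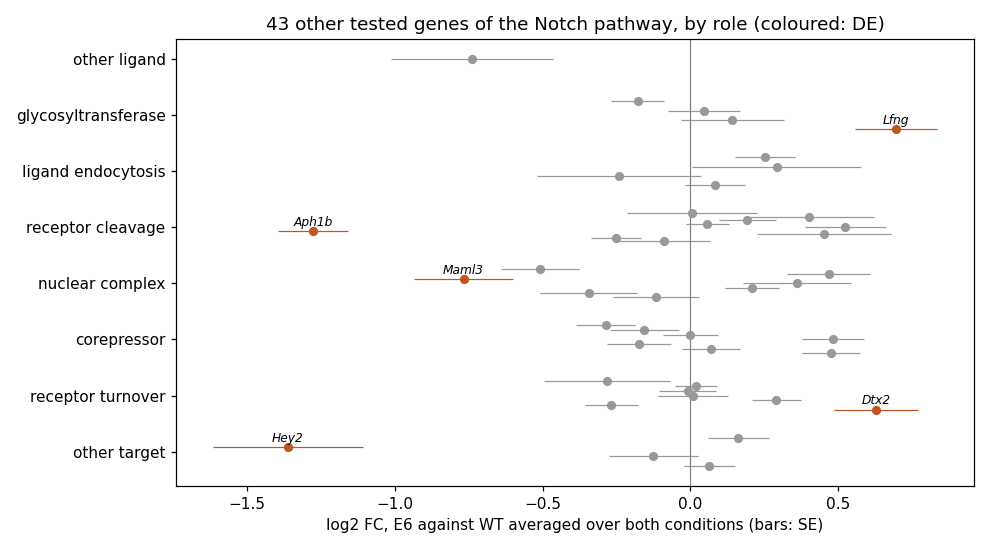
Log2 FC of E6 against WT, averaged over both conditions, with its SE for the 43 other tested genes of the pathway, grouped by role; coloured and named points are DE. *Hey2*, *Aph1b* and *Maml3* lie to the left of 0 and *Lfng* and *Dtx2* to the right.

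The genes most like a Notch gene were to be named for members that were DE between the cell types, and none was. The genes nearest to *Hes1* were therefore looked up after its values had been seen. Likeness was the mean absolute difference of log2 CPM, each gene centred on its own mean, over the 8 libraries and 10291 genes. *Dusp1*, an early response gene that encodes a MAP kinase phosphatase, was nearest (0.236), and *Irf1*, an interferon response factor, was second (0.359). *Dusp1* had 15 and 15.3 CPM in WT before adhesion, 39.5 and 103 CPM in WT after it, 22.3 and 19.2 CPM in E6 before adhesion and 32.5 and 60.3 CPM in E6 after it. *Irf1* had 9.59 and 11.8 CPM, 16.7 and 29.8 CPM, 7.98 and 6.91 CPM, and 19.9 and 36.6 CPM in the same order. As in *Hes1*, replicate 2 was the higher one after adhesion in both cell types. These genes were selected for that likeness, which is a description and no test.

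**Figure D5:**
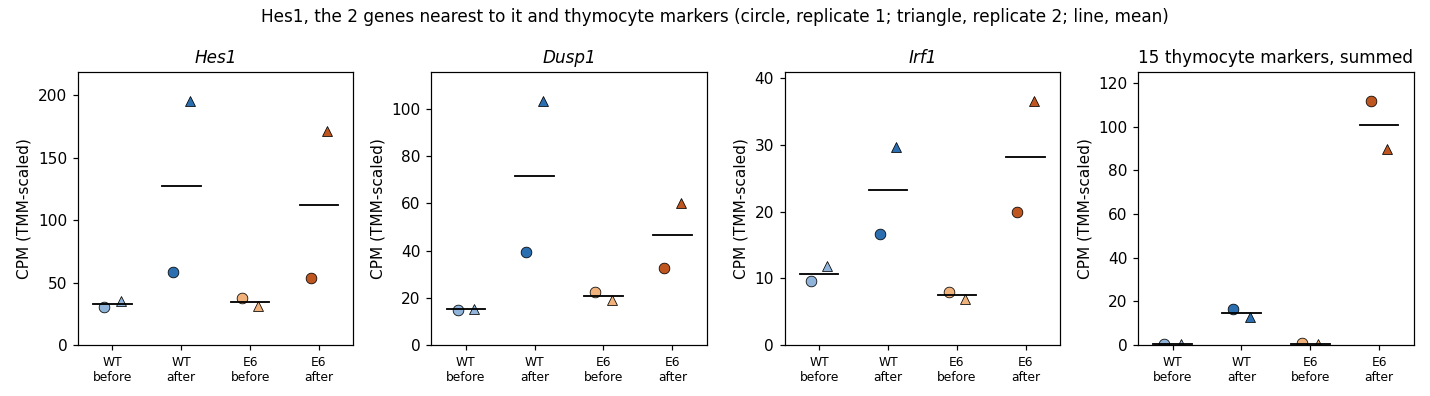
TMM-scaled CPM of *Hes1*, of the 2 genes nearest to it and of 15 summed thymocyte markers in each library, with a circle for replicate 1, a triangle for replicate 2 and a line for the mean. After adhesion *Hes1*, *Dusp1* and *Irf1* are higher in replicate 2, while the thymocyte markers are higher in replicate 1 and in E6.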

How the data were processed

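The authors aligned reads to mm10 with STAR 2.5.0a and deposited for each library the raw count of reads per gene from HTSeq, without normalization. The annotation release and the strand setting are not given in the sources used here. The protocol text of E6 before adhesion mentions co-culture, against its titles and source names, which set the groups. In 1 library, 18 symbols turned into dates were restored from the row order. The 10 genes and all lists were chosen with earlier results of these data known.

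The analysis used edgeR 4.0.16 in R 4.3.3. The filter filterByExpr left 11672 genes, which were scaled by TMM (factors 0.9377 to 1.027) and fitted with 1 mean per condition over the 8 libraries by quasi-likelihood. DE meant an FDR (Benjamini-Hochberg) under 0.05 together with an FC of 1.5 or more. SEs are the absolute log2 FC divided by the square root of F. Levels are TMM-scaled CPM, and per kb values use the merged exon length of GENCODE vM21 (GRCm38), where 22740 symbols matched directly and 935 by an older symbol. Floors of 3 counts cover counting error only. Likeness used log2 CPM with a prior count of 2 and genes with a mean of at least 1. The fit was also run on simulated counts with the same spread for all genes and libraries. These did not mimic the unequal replicates, and no result here rests on them.

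Named were the 10 genes, the other pathway genes that were DE and *Rbpj*; the rest were named after their values were seen. Some pathway genes are not reported here by name. Alternatives were RLE factors, DESeq2 1.42.0, no count filter, the replicate numbers as a block, culture hours as a term, no FC limit, only the 4 libraries compared, a lowess GC correction with and without the block, and each library left out. With a library left out, its condition held a lone library, and the spread came from the other conditions. Python 3.11.15, numpy 2.4.6, pandas 2.3.3 and matplotlib 3.10.9 made the tables and figures.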

Additional observations from a re-analysis of the deposited data

Results flagged for a closer look

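The 4 libraries of each cell type and the 4 before or after adhesion were checked for a library far from the other 3 in log2 CPM, in 32 groups of 4. The gap to the nearest library, as a share of the group's range, was above Dixon's critical value in 3 of the 32, and chance flags about 1 in 20. It was 0.842 for *Jag2* in WT, where replicate 1 after adhesion was low, 0.887 for *Jag2* before adhesion, where replicate 2 of E6 was high, and 0.861 for *Nrarp* after adhesion, where replicate 2 of WT was high. *Jag2* had 9 counts in the first of these libraries and 36 in the second.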

How the results depend on the processing

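By DE (FDR under 0.05, FC of 1.5 or more), 0 of the 10 Notch genes were called in each of the 7 contrasts. RLE factors, no count filter, the replicate block and culture hours as a term also gave 0. Without the FC limit the count was 2 for E6 against WT averaged, 1 before adhesion and 1 after it, against 20.9%, 5.72% and 10.3% of all genes. With GC correction it was 1 averaged (*Notch1*), 2 after adhesion (*Jag1* and *Notch1*), 1 for adhesion in E6 and 1 for adhesion averaged (*Dll1* in both). Over all tested genes the correction gave 1397, 1394, 275 and 244 in these contrasts, against 1324, 1040, 234 and 221 without it. GC correction with the replicate block gave 1, 2 and 1 for the first, second and last of these contrasts and 0 for adhesion in E6. Over all genes it gave 1364, 1254 and 181, and 183 for adhesion in E6. DESeq2 gave 1 for E6 against WT after adhesion (*Jag1*), against 1354 of all genes, and 1 for adhesion averaged (*Hes1*), against 337. With only the libraries compared, adhesion in E6 had 2 (*Dll1* and *Hes1*), against 537 of all genes. With each library left out, the count of DE Notch genes moved in most contrasts. The number of DE genes over the whole set also moved with the library left out. Each such fit had a lone library in that condition, so its counts are not given and say nothing about the Notch genes in particular. Why these settings moved the counts was not tested. For the other pathway genes, 5 were DE for E6 against WT averaged, 10 without the FC limit and between 1 and 11 with a library left out, and for adhesion averaged 0 to 4 with a library left out.

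Values near 0 changed sign when a library was left out. The averaged log2 FC of E6 against WT ranged from -0.127 to 0.0306 for *Dll1*, from -0.59 to 0.52 for *Hes1* and from -0.16 to 0.17 for *Nrarp*, and the difference of the adhesion effects of *Hes1* from -1.33 to 0.89. In the other 17 of 21 log2 FCs the direction held under all alternatives. The replicate numbers were not taken to pair the samples. The correlation of deviations of same-numbered libraries was 0.222 between WT before and after adhesion (9768 genes) and -0.079 to 0.023 in the other 5 pairs of groups, and no label ties a number to a batch or day. With the replicate block, *Notch1* before adhesion had an FDR of 0.0685, and the count of DE Notch genes was 0 in all contrasts. With 13506610 to 20145154 counts per library, *Dll4* and *Hey1* lay at the limit of detection and *Jag2* near it.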
